A study of Mus musculus with 12 samples.

Results

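The apolipoprotein L genes of the mouse were described in 12 RNA sequencing libraries of whole ileum, 1 per mouse. The family was taken as the rows of the count table whose Ensembl identifier maps to Apol6, Apol7a, Apol7b, Apol7c, Apol7e, Apol8, Apol9a, Apol9b, Apol10a or Apol10b, which gave 10 of 54838 genes. All mice were C57BL/6J, and per the methods of the study these were bought females of 8 to 14 weeks kept free of specific pathogens. They drank normal water or water with 25 mM ZnSO4 for 7 days, and then received 200 µg of the synthetic glucocorticoid dexamethasone (Dex) in PBS, or PBS alone, by intraperitoneal injection, with sampling after 2 h. The 4 groups were water + PBS, water + Dex, ZnSO4 + PBS and ZnSO4 + Dex, each of 3 mice. Per the study, the question was what oral zinc changes in ileal gene expression, and how this relates to the changes made by a glucocorticoid.

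Apolipoprotein L proteins are named after a human member that travels on high-density lipoprotein and lyses trypanosomes. The mouse proteins are thought to act mainly inside cells, at membranes, and the gene cluster has expanded separately in mice and humans. Many members are induced by interferons, through interferon-stimulated response elements (ISRE) that are bound by STAT and interferon regulatory factors. Glucocorticoids, acting through the glucocorticoid receptor, are known to dampen this kind of inflammatory transcription, and zinc salts are known to induce metallothioneins through the metal transcription factor MTF1.

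The family was chosen by measured values. Earlier results of these same counts had named Apol10a and Apol7c as downregulated by Dex in water mice, Apol10a as downregulated by ZnSO4 in PBS mice, and Apol7c as lower still in Dex mice given ZnSO4. The study itself had listed Apol10a, Apol7c and Apol9a among the genes that these treatments changed. Dex in ZnSO4 mice, both treatments against none and the interaction are sums and differences of the comparisons that chose the family, so they are no independent measure either. Levels and log2 fold changes (LFC) of the members are therefore given as a description in every comparison, with no p-value, and calls are only counted, beside the share called over all genes.

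All 10 members lie on chromosome 15 (GRCm38, the build called mm10, GENCODE M21 annotation). Apol6, at chr15:77044729-77057106, is set apart by 331.1 kb. The other 9 lie within 368.8 kb, between positions 77388219 and 77757003, with 6 genes on the minus strand and 3 on the plus strand. Several copies are alike enough to share reads. Of the 31-base stretches in the transcripts of Apol7b, 82.9% also occur in another gene, nearly all of them in Apol7e, and for Apol7e this share was 83.4%. It was 64.9% for Apol9b and 20.2% for Apol9a, which share with each other, 38.1% for Apol7c, 28.2% for Apol10a, 25.2% for Apol7a, 11.8% for Apol10b, 3.03% for Apol6 and 0.232% for Apol8. With longer stretches of 75 bases the shares were lower: 65.6% for Apol7e, 61.3% for Apol7b, 43.3% for Apol9b, 14.2% for Apol7c and 13.8% for Apol9a. They were 7.51% for Apol7a, 6.56% for Apol10a, 1.51% for Apol10b, 0.0652% for Apol6 and 0% for Apol8. Reads that mapped to several places had been left out of the counts, so the levels of Apol7b, Apol7e and Apol9b are uncertain. In Apol7e, 13.4% of exonic bases also overlap a gene on the opposite strand, Gm36329, and 1.42% of Apol6 overlaps Mb. The strand setting of the counting is not given in the sources used here, so reads of these partners may be mixed.

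The promoters of 5 members are shown because the levels of these genes follow different patterns below. RefSeq windows of 300 bases, from 250 bases before the start site to 50 after it (GRCm38.p6), were given for 9 of the 10 members, all but Apol6. Each window is written 5′ to 3′ on the strand of its gene, with capitals marking matches to the ISRE core GAAANNGAA, which reads TTCNNTTTC on the other strand.
Apol10a, chr15:77476797-77477096, plus strand: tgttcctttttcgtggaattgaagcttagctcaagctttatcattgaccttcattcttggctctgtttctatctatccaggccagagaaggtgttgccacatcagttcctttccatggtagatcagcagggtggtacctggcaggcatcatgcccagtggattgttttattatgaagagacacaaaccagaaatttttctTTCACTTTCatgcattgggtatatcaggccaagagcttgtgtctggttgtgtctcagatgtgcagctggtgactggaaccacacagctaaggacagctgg
Apol10b, chr15:77596076-77596375, minus strand: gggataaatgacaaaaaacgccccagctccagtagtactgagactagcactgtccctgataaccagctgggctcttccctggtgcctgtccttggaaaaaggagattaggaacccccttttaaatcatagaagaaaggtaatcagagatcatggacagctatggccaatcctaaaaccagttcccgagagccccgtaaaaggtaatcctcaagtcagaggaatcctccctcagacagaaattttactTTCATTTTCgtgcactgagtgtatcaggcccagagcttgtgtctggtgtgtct
Apol7c, chr15:77533266-77533565, minus strand: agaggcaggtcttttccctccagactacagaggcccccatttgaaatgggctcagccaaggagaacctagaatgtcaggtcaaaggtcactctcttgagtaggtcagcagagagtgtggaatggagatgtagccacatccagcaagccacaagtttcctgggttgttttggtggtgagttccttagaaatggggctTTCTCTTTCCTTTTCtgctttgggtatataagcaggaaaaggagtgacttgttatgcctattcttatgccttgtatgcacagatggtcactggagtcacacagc
Apol9a, chr15:77411031-77411330, minus strand: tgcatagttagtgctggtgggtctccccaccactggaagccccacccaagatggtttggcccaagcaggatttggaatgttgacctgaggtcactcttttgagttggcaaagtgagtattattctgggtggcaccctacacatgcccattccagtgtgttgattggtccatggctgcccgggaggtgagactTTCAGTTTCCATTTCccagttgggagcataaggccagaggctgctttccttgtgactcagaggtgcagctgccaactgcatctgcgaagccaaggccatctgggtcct
Apol7a, chr15:77399061-77399360, minus strand: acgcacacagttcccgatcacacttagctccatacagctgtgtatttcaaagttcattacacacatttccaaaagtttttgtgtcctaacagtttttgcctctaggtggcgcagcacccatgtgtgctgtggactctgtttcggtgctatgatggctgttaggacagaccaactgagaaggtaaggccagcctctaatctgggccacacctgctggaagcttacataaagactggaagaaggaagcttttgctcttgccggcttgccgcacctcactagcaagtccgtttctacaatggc
An ISRE core was found in the promoters of 6 of the 9 members, against 8.56% of all 32851 RefSeq promoters and 17 of 24 promoters (70.8%) of a list of interferon-induced effectors. Apol10a had 1 match, beginning 50 bases before the start site. Apol10b had 1 match, beginning 3 bases before it. Apol7c, Apol7e, Apol9a and Apol9b each had 2 matches that overlap by part of their letters, all upstream of the start site. Apol7a, Apol7b and Apol8 had none in this window. These promoters are not independent sequences: those of Apol9a and Apol9b were identical over 278 aligned bases, and those of Apol7b and Apol7e were 97.7% identical. The gamma-activated site TTCNNNGAA, which reads the same on both strands, was found in Apol10a alone, against 8.3% of all promoters. On either strand, no window held the glucocorticoid response element ACANNNTGT (6.85% of all promoters), the shorter form AGAACA (19%), the NF-kB motif GGGANTTTC (1.11%) or the metal response element core TGCACNC (12.6%). A match or its absence describes these letters and says nothing of binding.

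The libraries held between 10760132 and 11827487 counts on genes. Levels below are normalised counts, that is, counts scaled to a common library size, at which 1 read is worth close to 1 unit. In the Dex mice all 7 known glucocorticoid-induced genes that were listed passed the cut-offs upwards, and Mt1 and Mt2 did so in the ZnSO4 mice, with LFC in Dex mice of 4.42 ± 0.28 and 5.06 ± 0.36 (SE). Slc30a1, a zinc exporter and the other gene on the zinc list, was not called, with LFCs by ZnSO4 of -0.09 ± 0.19 in PBS mice and 0.11 ± 0.19 in Dex mice. Markers of epithelium, muscle, endothelium and 4 kinds of immune cell all had reads in every group, so the tissue was a mixture, in which fewer cells of a type and less RNA per cell cannot be told apart. No libraries of a group were copies of each other. The series calls its replicates biological, so each p-value measures the spread between mice.

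Per length, the family was led by Apol10a and Apol7a. In the water + PBS mice, Apol10a stood at 214 ± 7.08 TPM (counts per length, scaled to the same total in each library, mean ± SD, n = 3), Apol7a at 90.3 ± 13.3, Apol7c at 37.5 ± 2.89 and Apol9b at 10.1 ± 5.57. Apol10b at 6.18 ± 0.342 TPM and Apol9a at 4.36 ± 1.90 TPM followed. The ranges of Apol9b, Apol10b and Apol9a overlapped one another and did not reach the level of Apol7c. Apol7e, Apol7b and Apol6 lay between 0.844 and 2.76 TPM, and Apol8 at 0.0716 TPM. The summed family differed over the groups, with 367 ± 15.8 TPM in water + PBS, 253 ± 32.2 in water + Dex, 231 ± 3.35 in ZnSO4 + PBS and 116 ± 23.9 in ZnSO4 + Dex. The single-treatment groups overlapped each other, between 226 and 289 TPM with Dex and between 228 and 233 TPM with ZnSO4, and neither overlapped the untreated or the doubly treated group. The make-up of the sum shifted as well. Apol10a gave 58.4% of the family's TPM in water + PBS and 29.2% in ZnSO4 + Dex, while Apol7a went from 24.5% to 56.4%.

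**Figure D1:**
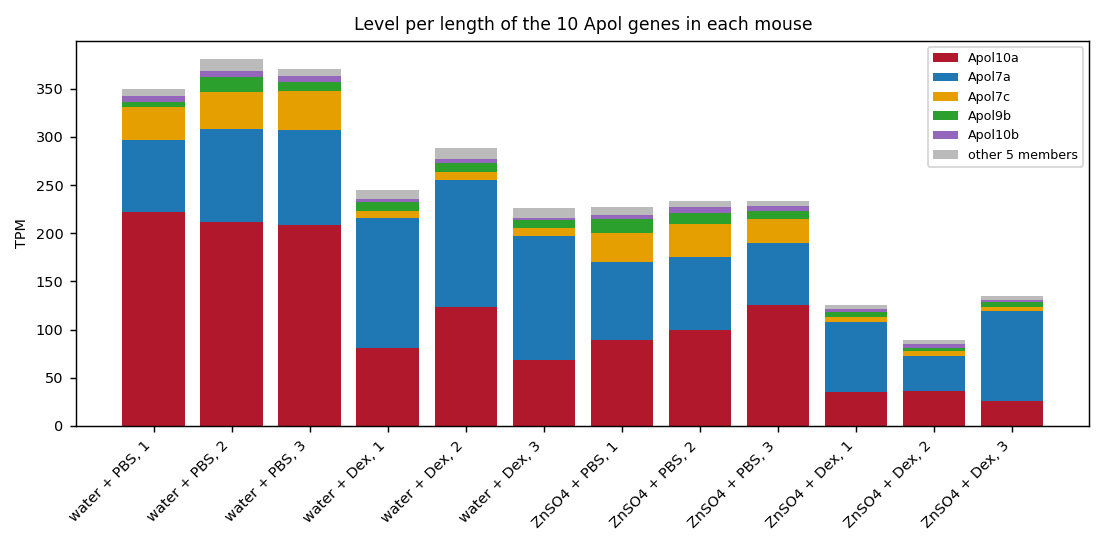
TPM (counts per length, scaled to a common total) of the Apol genes stacked for each of the 12 mice. The group and replicate number are under each bar, and Apol6, Apol7b, Apol7e, Apol8 and Apol9a are pooled in grey. The whole stack is near 367 TPM in water + PBS and near 116 TPM in ZnSO4 + Dex, and the Apol10a part shrinks more than the Apol7a part.

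Apol10a, the most abundant member in untreated mice, was lower with either treatment and lowest with both. In the water + PBS mice it had 3197, 2897 and 2867 normalised counts. In water + Dex it had 1188, 1841 and 1082, and in ZnSO4 + PBS 1221, 1235 and 1616. In ZnSO4 + Dex it had 504, 488 and 358. The single-treatment groups overlapped each other, and each lay wholly between the untreated and the doubly treated mice. As a description, the LFC was -1.14 ± 0.20 (SE) for ZnSO4 in PBS mice, which is 2.20-fold lower, and -1.12 ± 0.20 for Dex in water mice, which is 2.18-fold lower. Within Dex mice ZnSO4 gave an LFC of -1.61 ± 0.20, and both treatments against none gave -2.73 ± 0.21, or 6.63-fold lower. Within ZnSO4 mice Apol10a was 3.02-fold lower with Dex, an LFC of -1.59 ± 0.20, and all 3 Dex mice were below all 3 PBS mice.

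**Figure D2:**
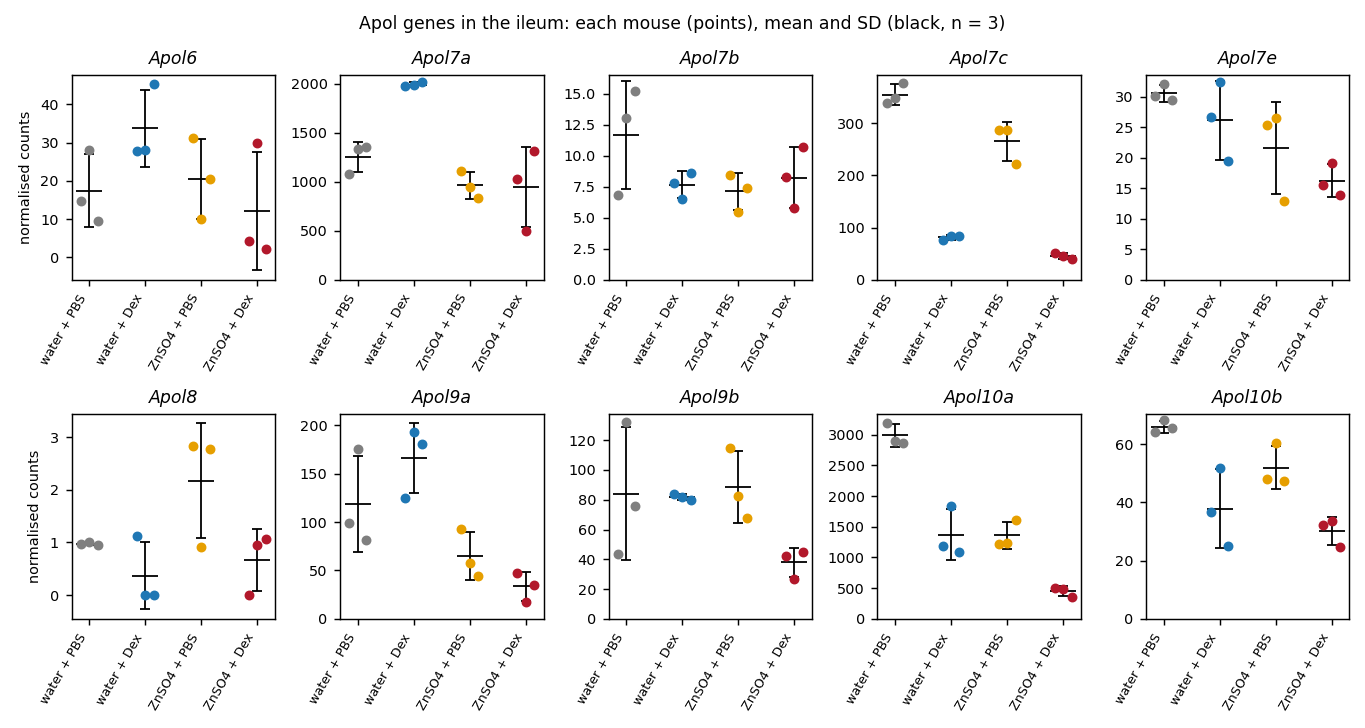
Normalised counts of the 10 Apol genes, each in its own panel and on its own linear axis, with a coloured point per mouse and the mean ± SD of the 3 mice of each group in black. Apol10a steps down from 2987 to 449.9 on average, Apol7c is low in both Dex groups, and Apol7a is highest in water + Dex.

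Apol7c, which is known from dendritic cells, where it helps antigen to leave phagosomes for cross-presentation, was low in every Dex mouse. It had 339, 349 and 377 normalised counts in water + PBS and 287, 288 and 221 in ZnSO4 + PBS. After Dex it had 75.8, 83.2 and 84.3 in water mice and 50.8, 46.1 and 39.5 in ZnSO4 mice. The 4 groups did not overlap, in the order water + PBS, ZnSO4 + PBS, water + Dex and ZnSO4 + Dex. As a description, the LFC was -2.13 ± 0.13 for Dex in water mice, -0.42 ± 0.12 for ZnSO4 in PBS mice and -0.83 ± 0.14 for ZnSO4 in Dex mice. Within ZnSO4 mice Apol7c was 5.82-fold lower with Dex, an LFC of -2.54 ± 0.14. Of the 9 tested members, Apol7c had the largest change by Dex in both kinds of drinking water.

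Apol7c shares 24.8% of its 31-base stretches with Gm8221, and Apol10a shares 15.3% with the pseudogene Apol10c-ps. Of 75-base stretches, these shares were 8.35% and 3.08%. Gm8221 had 92.6 ± 4.69 normalised counts (SD, n = 3) in water + PBS and 10.9 ± 4.08 in ZnSO4 + Dex, and its LFC by Dex in ZnSO4 mice was -2.57 ± 0.24. Apol10c-ps had 116 ± 22.6 and 18.4 ± 8.19 in the same groups, and an LFC by Dex in ZnSO4 mice of -1.41 ± 0.38. Both relatives thus had lower counts in the same groups as the members they resemble. In water + PBS and ZnSO4 + Dex, Apol7c had means of 355 and 45.5 normalised counts, and Apol10a of 2987 and 449.9. How far reads of one gene were counted in the other was not tested.

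Apol10b, the neighbour closest in name to Apol10a, had 64.2, 68.2 and 65.6 normalised counts in water + PBS. It had 36.8, 51.8 and 24.9 in water + Dex, 48.1, 60.4 and 47.2 in ZnSO4 + PBS, and 32.1, 33.6 and 24.6 in ZnSO4 + Dex. In both kinds of drinking water, every Dex mouse was below every PBS mouse. The LFC by Dex was -0.80 ± 0.24 in water mice and -0.78 ± 0.24 in ZnSO4 mice, close to the cut-off of 0.8 used below. ZnSO4 gave -0.35 ± 0.23 in PBS mice and -0.33 ± 0.25 in Dex mice.

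Apol7a, the member of second rank per length in untreated mice, had another pattern. It had 1079, 1332 and 1354 normalised counts in water + PBS and 1974.5, 1985 and 2021 in water + Dex. It had 1112, 944 and 833 in ZnSO4 + PBS and 1029.6, 501 and 1311 in ZnSO4 + Dex. The water + Dex mice were thus above all other mice, and the ZnSO4 + Dex mice spread more widely than any other group. The LFC by Dex was 0.67 ± 0.26 in water mice and -0.02 ± 0.26 in ZnSO4 mice, where leaving out ZnSO4 + Dex replicate 2 turned it to 0.28. ZnSO4 gave -0.38 ± 0.26 in PBS mice and -1.07 ± 0.26 in Dex mice, and the latter was -0.77 without ZnSO4 + Dex replicate 2. The same ZnSO4 + Dex replicate 2 had the lowest sum of 10 enterocyte markers, 136503 normalised counts against 238769 and 279513 in the other mice of its group, and the part of this in the Apol7a value was not tested.

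The Apol9 copies, antiviral proteins that are strongly induced by interferon, had their lowest means in the doubly treated mice. Apol9a had 99.2, 176 and 81.7 normalised counts in water + PBS, 125, 193 and 180.5 in water + Dex, 92.4, 57.7 and 44.5 in ZnSO4 + PBS, and 47.7, 17.3 and 35.2 in ZnSO4 + Dex. Every ZnSO4 + Dex mouse lay far below every water + Dex mouse, and the LFC by ZnSO4 in Dex mice was -2.32 ± 0.40, a 4.98-fold lower level. In PBS mice ZnSO4 gave -0.87 ± 0.38, with overlapping groups. Within ZnSO4 mice Dex gave -0.96 ± 0.41, again with overlap.

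Apol9b had 43.8, 132 and 76.0 normalised counts in water + PBS and 83.6, 82.1 and 80.0 in water + Dex. It had 115, 82.4 and 67.6 in ZnSO4 + PBS and 42.5, 26.9 and 44.9 in ZnSO4 + Dex. The first 3 groups overlapped, and the ZnSO4 + Dex mice lay below both groups given 1 treatment. Within ZnSO4 mice Apol9b was 2.32-fold lower with Dex, an LFC of -1.21 ± 0.36, and within Dex mice ZnSO4 gave -1.11 ± 0.36. Since Apol9a and Apol9b share sequence, their counts were also summed, and the sum gave an LFC by Dex in ZnSO4 mice of -1.10 ± 0.34 and by ZnSO4 in Dex mice of -1.80 ± 0.35.

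The remaining members were low. Apol7e ranged from 13.0 to 32.4 normalised counts over all 12 mice and Apol7b from 5.49 to 15.2. By Dex in ZnSO4 mice the LFC was -0.41 ± 0.30 for Apol7e and 0.20 ± 0.38 for Apol7b. Apol6, whose human counterpart promotes cell death when overproduced, ranged from 2.14 to 45.4, and in ZnSO4 + Dex from 2.14 and 4.15 to 29.8 in replicate 2. Its LFC by Dex in ZnSO4 mice was -0.73 ± 0.73, and -2.65 without that replicate. Apol8 had 0 to 3 reads in each library and did not pass the filter on low counts, so no comparison was detectable for it at this depth.

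Over the family, 9 of the 10 members passed the filter on low counts and were tested among 15938 genes. A gene was called at an adjusted p under 0.05 and an LFC beyond 0.8 in size. With ZnSO4 in PBS mice, 1 member was called down (Apol10a), where 0.954% of all genes were, and 0 up, where 0.747% were. With Dex in water mice, 2 were called down (Apol7c and Apol10a), where 1.64% of all genes were, and 0 up, where 2.79% were. With ZnSO4 in Dex mice, 4 were called down (Apol9a, Apol10a, Apol7a and Apol7c), where 1.2% of all genes were, and 0 up, where 0.696% were. For ZnSO4 in Dex mice, the call of Apol7a was kept in 3 of 12 fits that each left out 1 mouse, those without ZnSO4 + PBS replicate 1 or 3 or ZnSO4 + Dex replicate 3. The call of Apol7c was lost without water + Dex replicate 3 or ZnSO4 + Dex replicate 3, at LFCs of -0.80 and -0.74. Without water + Dex replicate 2, Apol10b was called by Dex in water mice. Without ZnSO4 + Dex replicate 2, Apol6 was called down by ZnSO4 in Dex mice, by Dex in ZnSO4 mice and by both treatments. Apol9b was called by ZnSO4 in Dex mice without water + PBS replicate 2, with DESeq2, and when only the groups compared were fitted. These counts come from comparisons that were used in choosing the family, and nothing is read from them.

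With Dex in ZnSO4 mice, 3 members were called down (Apol7c, Apol10a and Apol9b), where 2.4% of all genes tested were, and 0 were called up, where 3.41% were. The call of Apol9b was lost in 9 of 12 fits that each left out 1 mouse, and the fits that kept it left out water + PBS replicate 1 or 2 or ZnSO4 + PBS replicate 3. It was also lost when Apol9a and Apol9b were summed. The LFC was below 0 for 8 of the 9 tested members, with a median of -0.78, against 48.7% of all genes tested and a median of 0.01. Against untreated mice, the doubly treated mice had 6 members called down (Apol7c, Apol10a, Apol9a, Apol9b, Apol10b and Apol7e), where 4.56% of all genes were, and 0 up, where 5.1% were. The calls of Apol7e and Apol9b were the less firm ones there, kept in 5 and 4 of 12 fits that each left out 1 mouse. That of Apol7e was kept without water + Dex replicate 2 or 3 or any ZnSO4 + PBS mouse, and that of Apol9b without water + PBS replicate 1 or any ZnSO4 + PBS mouse. Without water + PBS replicate 2 the LFC of Apol9b moved from -1.14 to -0.66. Nothing is read from these counts either.

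**Figure D3:**
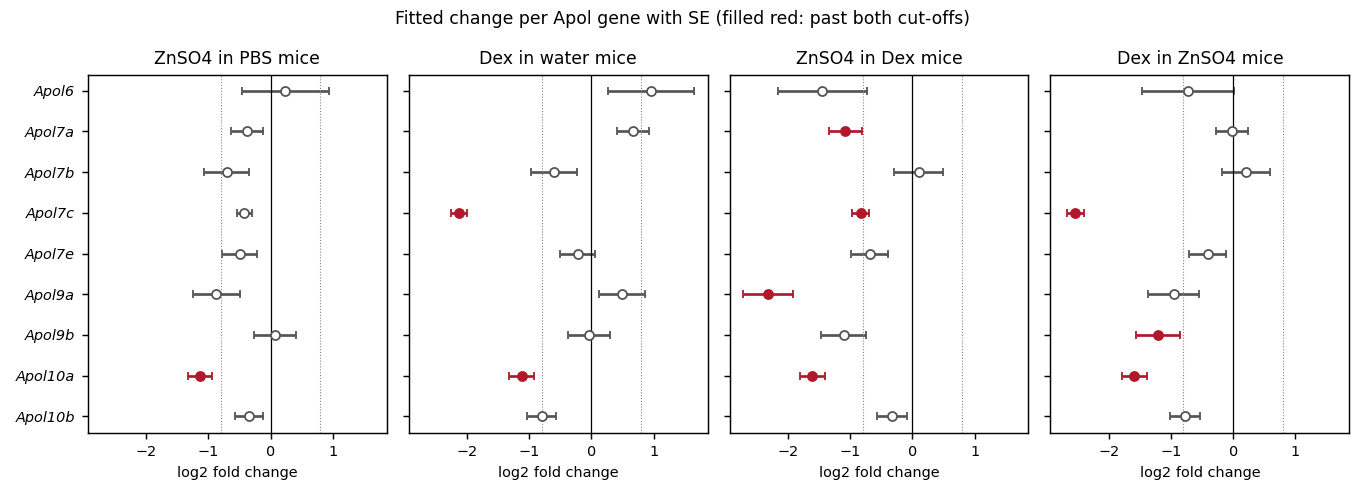
Log2 fold change (horizontal) with its SE for the 9 tested Apol genes in 4 comparisons, each panel with 3 mice against 3. Filled red points passed an adjusted p of 0.05 and a change beyond 0.8 (dotted lines), and in the panel for Dex in ZnSO4 mice these are Apol7c at -2.54, Apol10a at -1.59 and Apol9b at -1.21.

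Whether Dex acted differently with ZnSO4 in the water was tested over all genes as an interaction. The number of genes with an adjusted p under 0.05 was 0 of 15938 in edgeR (0%), with 794 genes at an unadjusted p under 0.05, and 6 in DESeq2, none of them a member. As a description, the difference in LFC was -1.44 ± 0.55 for Apol9a, -1.18 ± 0.49 for Apol9b and -0.41 ± 0.19 for Apol7c. It was -0.47 ± 0.28 for Apol10a, -0.69 ± 0.36 for Apol7a and 0.02 ± 0.35 for Apol10b. No member was called, which does not show that the Dex effects with and without ZnSO4 were equal.

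**Figure D4:**
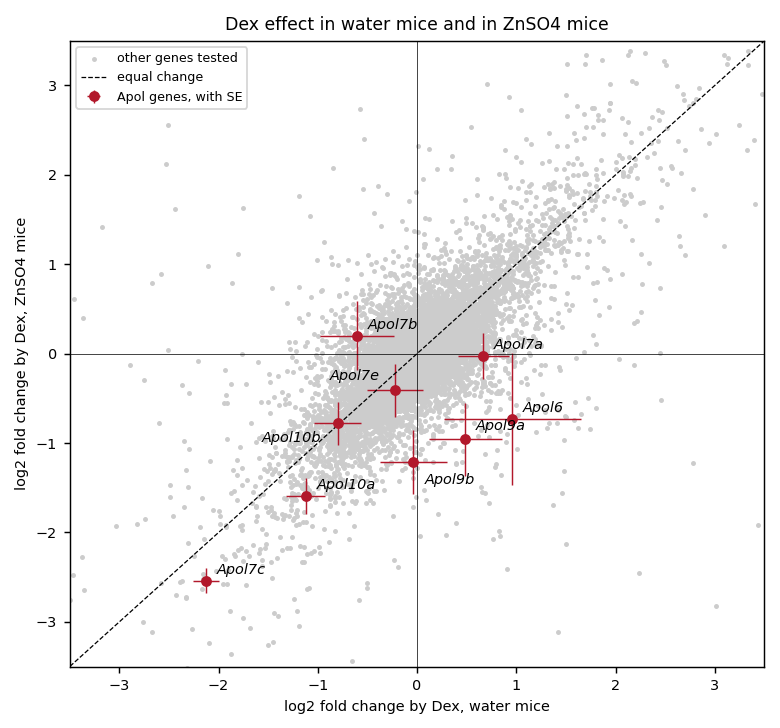
Log2 fold change by Dex in water mice (horizontal) and in ZnSO4 mice (vertical), 2 comparisons without shared mice, for the 9 tested Apol genes in red with SE and other tested genes in grey, with equal change on the dashed line. Apol7c (-2.13 and -2.54) and Apol10a (-1.12 and -1.59) lie low on both axes, Apol9a, Apol9b and Apol6 lie below the line, and 87 genes fall outside the axes, which end at 3.5.

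The genes whose levels ran most like those of the 2 leading members were named by Pearson's r of log2 CPM (counts scaled to library size) over the 12 libraries, as a description. For Apol10a they included the interferon-induced transcription factor Batf2 (r = 0.97), the chemokine Xcl1 (0.96), Chic1 (0.96) and the interferon-induced ADP-ribosyltransferase Parp14 (0.96). Among the family, Apol10b (0.85) and Apol7c (0.84) were nearest to Apol10a, and Apol7a was far from it (0.29). For Apol7a these were the microvillus protein gene Eps8 (0.98), Slc46a3 (0.96), the mitochondrial carrier Slc25a22 (0.96), the brush border peptidase Ace (0.95) and the microvillus linker Ezr (0.95). All these values share the 12 libraries and their 4 groups.

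Genes of the interferon pathway were counted from lists that were chosen with earlier results of these data known. The calls counted here and in the next paragraph are therefore a description. Of the ligands, 6 of 7 had 0 reads in every library and Ifng had at most 6, so none was tested. Of 9 receptors and Janus kinases, 1 was called down by Dex in water and in ZnSO4 mice, where 1.64% and 2.4% of all genes were. It was Ifnlr1, the receptor chain for type III interferon, with an LFC of -0.92 ± 0.19 in ZnSO4 mice (adjusted p = 0.0065, edgeR). The other 8 were not called. Of 9 transcription factors, Dex in ZnSO4 mice called 3 down and 0 up, where 2.4% and 3.41% of all genes were. The 3 were Batf2 (LFC = -1.82 ± 0.14), Irf8 (-1.11 ± 0.14) and Irf1, which was 2.00-fold lower. ZnSO4 in Dex mice called Batf2 (-1.31 ± 0.14) and Irf7 (-1.14 ± 0.14) down and 0 up, where 1.2% and 0.696% of all genes were. ZnSO4 in PBS mice called 2 factors down and 0 up, where 0.954% and 0.747% of all genes were. Dex in water mice called 3 down and 0 up, where 1.64% and 2.79% were.

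Of 33 interferon-induced effectors, 9 were called down and 1 up by Dex in ZnSO4 mice, where 2.4% and 3.41% of all genes were. Cxcl10, a chemokine that draws T cells, had an LFC of -2.48 ± 0.39, and Ifit1, which binds viral RNA, of -2.11 ± 0.23. Usp18, which removes ISG15 from proteins, was the gene called up, at 1.90 ± 0.32. By ZnSO4 in Dex mice 15 effectors were called down and 0 up, where 1.2% and 0.696% of all genes were, led by Zbp1, a nucleic acid sensor in necroptosis, at -2.51 ± 0.22. By ZnSO4 in PBS mice the count was 10 down and 0 up, where 0.954% and 0.747% of all genes were. By Dex in water mice it was 6 down and 1 up, where 1.64% and 2.79% were. The median LFC over the effectors was -0.49 for Dex in ZnSO4 mice and -0.76 for ZnSO4 in Dex mice, beside -0.78 and -1.07 for the Apol genes and 0.01 for all genes tested in both. The apolipoproteins of lipoprotein particles, which share a name with the family and carry lipid in chylomicrons and plasma, gave 10 of 14 tested genes and none called in any comparison, with medians of 0.16 and -0.29.

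**Figure D5:**
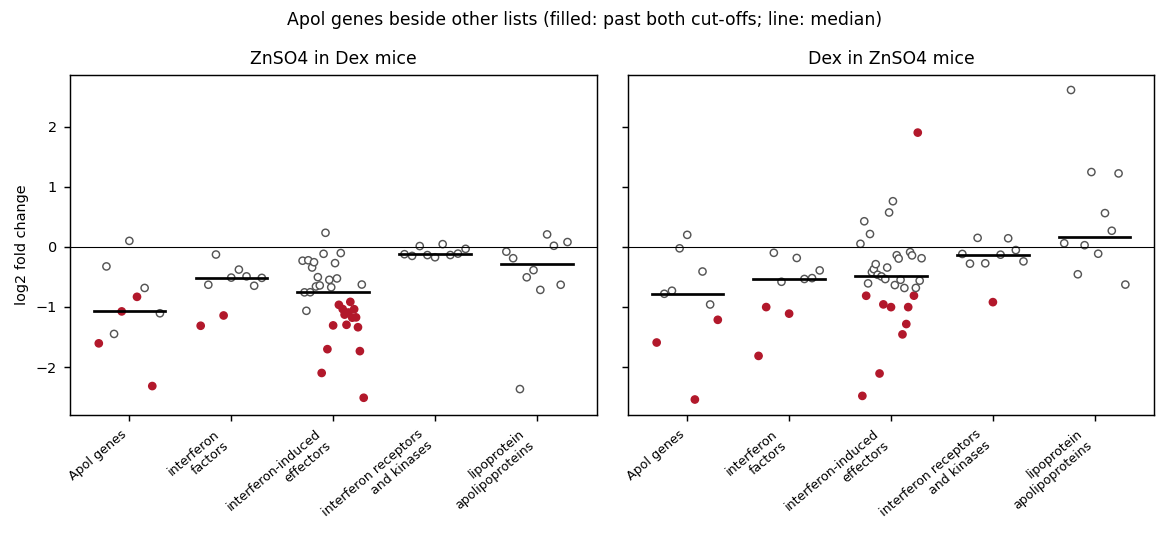
Log2 fold change of each tested gene, by list, for ZnSO4 in Dex mice (left) and Dex in ZnSO4 mice (right), with a black line at the median and filled red points past both cut-offs. The Apol medians are -1.07 and -0.78, and the lipoprotein apolipoproteins, with medians of -0.29 and 0.16, hold no filled point.

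Marker genes of cell types also differed between groups, and their part in the Apol values was not tested. The 10 dendritic cell markers, all with reads in every group, summed to 2027 to 2852 normalised counts in water + PBS, 966 to 1329 in water + Dex, 1244 to 1901 in ZnSO4 + PBS and 843 to 992 in ZnSO4 + Dex. All 3 treated groups thus lay below the untreated one, while water + Dex overlapped both other treated groups. This sum was carried by Irf8, also on the list of interferon factors, which made up 76.3% of it in water + PBS and 52.9% in ZnSO4 + Dex. Without Irf8, a gene singled out after its values were seen, the other 9 markers summed to 357 to 798 in water + PBS, 360 to 533 in water + Dex, 301 to 664 in ZnSO4 + PBS and 396 to 459 in ZnSO4 + Dex, and all 4 groups overlapped. Irf8 and Xcr1 were the markers called down by Dex in both kinds of water. The 10 T cell markers summed to 2297 to 3485 in water + PBS and 2753 to 4282 in water + Dex, and to 1042 to 1532 in ZnSO4 + PBS and 1171 to 1369 in ZnSO4 + Dex. T cell markers were thus lower in ZnSO4 mice, with Gzma, Cd8a and Itgae called in both PBS and Dex mice, and Dex called none of them in either. The 10 enterocyte markers summed to 189375 to 231642 in water + PBS, 242359 to 286786 in water + Dex, 200068 to 290042 in ZnSO4 + PBS and 136503 to 279513 in ZnSO4 + Dex. Apol7a and the enterocyte sum were both above their untreated range in every water + Dex mouse. In water + PBS, Fabp6 and Apoa1 had the largest means of these markers, 64758 and 46169 normalised counts. Slc10a2 was the only enterocyte marker called by Dex, up in both kinds of water. The enterocyte sum was also above that range in ZnSO4 + PBS replicate 1 (290042) and in ZnSO4 + Dex replicates 1 (238769) and 3 (279513). Apol7a had 1112, 1029.6 and 1311 normalised counts in these mice, not above its untreated range of 1079 to 1354. The part of enterocyte content in the Apol7a values was not tested. B cell markers ranged from 430.0 to 8683 within water + PBS alone, and none was called. By Dex in ZnSO4 mice, the macrophage marker Mrc1 was called up and the endothelial markers Kdr and Cldn5 down. Of the 10 endothelial markers, 5 had an LFC above 0 there and 5 below, with a median of -0.06. Of the 10 macrophage markers, 8 were above 0 and 2 below, with a median of 0.29. No Paneth cell, goblet cell or smooth muscle marker was called by Dex in ZnSO4 mice. ZnSO4 called the Paneth cell marker Reg3g down, with LFCs of -3.14 ± 0.39 in PBS mice and -2.82 ± 0.38 in Dex mice. Mptx2 was called down in PBS mice (-1.58 ± 0.37). All 10 Paneth cell markers had an LFC below 0 by ZnSO4 in PBS mice, with a median of -0.30. In Dex mice 6 were below 0 and 4 above, with a median of -0.02. The goblet cell marker Muc2 was called up by ZnSO4 in PBS mice (0.88 ± 0.20) and in Dex mice (0.83 ± 0.20).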

How the data were processed

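RNA of ileum washed with PBS was made into stranded TruSeq libraries and sequenced from a single end. Per the study's methods and the submitters' processing notes, the authors trimmed reads (Trimmomatic), aligned them to mm10 with HISAT2 2.0.4 and counted them per gene with featureCounts, leaving out multimapping reads. The deposited values are raw counts per Ensembl gene. The annotation release and strand setting are not given in the sources used here, and the labels and the methods differ in the unit of the injected volume.

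Symbols were matched for 54723 of 54838 identifiers, and 54809 had a position in GENCODE M21. All 12 libraries (10760132 to 11827487 counts, median 11388606) entered 1 fit of 4 group means in edgeR 4.0.16 (R 4.3.3): TMM factors, genes kept by filterByExpr with a minimum count of 10 (15938 genes, 99.83% of counts), the quasi-likelihood test, and Benjamini-Hochberg adjustment over all tested genes. Calls needed an adjusted p under 0.05 and a log2 fold change beyond 0.8, the cut-offs of the study, except for the interaction (adjusted p alone). The SE is the log2 fold change divided by the root of F. Normalised counts are counts per effective library size, times the mean size of 11377723. TPM used the exon union of each gene. The common biological coefficient of variation was 0.191, and values from few reads carry a counting error beside it. The fitting code was checked on simulated counts.

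The members and all gene lists were chosen with earlier results of these data known. All 10 members were described, with the 5 most correlated genes of the 2 most abundant members and, from the lists, the genes called with the largest changes. Some genes that this rule or these lists name are not reported here. Alternatives were DESeq2 1.42.0 (the tool of the study), other size factors, other filters, other cut-offs, only the groups compared, the replicate number as a block, similar members summed, transcript length for TPM, and leaving out each mouse in turn.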

Additional observations from a re-analysis of the deposited data

How the results depend on the processing

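The calls of Apol10a in its 5 comparisons other than the interaction, of Apol7c for Dex in water, Dex in ZnSO4 and both treatments, of Apol9a for ZnSO4 in Dex mice and both treatments, and of Apol10b for both treatments were made in all 12 fits that left out 1 mouse and in all 7 or 8 other fits available. The number of members called down by ZnSO4 in Dex mice was 4, and between 2 and 4 over the 12 fits that left out 1 mouse, with 2 without water + Dex replicate 3. Leaving out 1 mouse changed some signs. By Dex in ZnSO4 mice, LFCs lay between -0.33 and 0.28 for Apol7a and between -0.024 and 0.41 for Apol7b. The interaction of Apol10b lay between -0.21 and 0.32, and Apol7b by ZnSO4 in Dex mice between -0.12 and 0.31. Apol9b lay between -0.34 and 0.45 by Dex in water mice and between -0.23 and 0.56 by ZnSO4 in PBS mice. For Apol6 the LFC lay between -0.19 and 0.76 by ZnSO4 in PBS mice. None of these was called in any such fit. Apol6 for both treatments lay between -2.41 and 0.03 and was called in 1 of the 12 fits, without ZnSO4 + Dex replicate 2. With the longest transcript as length, Apol7a made up 28.8% of the family's TPM in water + PBS and 36.7% in ZnSO4 + PBS, against 24.5% and 32.0%. The replicate numbers did not pair the mice: the deviations of 18 same-numbered pairs correlated at a median of -0.06 (-0.36 to 0.46), and 4 of 12 libraries correlated best with their own number. With the number as a replicate block, Apol9b by Dex in ZnSO4 mice (LFC = -1.20), Apol9b for both treatments (LFC = -1.11) and Apol7a by ZnSO4 in Dex mice (LFC = -1.12) were not called, and Apol10b by Dex in water mice (LFC = -0.84) was. Fitting only the groups compared lost Apol7a by ZnSO4 in Dex mice and Apol9b for both treatments, and gave the call of Apol9b by ZnSO4 in Dex mice, as did DESeq2, and upper-quartile factors lost Apol7c by ZnSO4 in Dex mice (LFC = -0.79). Apol7e for both treatments was lost with DESeq2, upper-quartile factors and every gene with a read, and Apol10b by Dex in water mice was called with 10 counts required in every library. Members with few reads (Apol6, Apol7b, Apol7e) have SEs up to 0.75 on the log2 scale outside the interaction, so only large changes were detectable for them.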
